A study of Mus musculus with 6 samples.

Results

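The vascular endothelial growth factor (VEGF) family is represented here by 9 genes chosen by name, 9 of the 22180 genes measured. They are the ligand genes Vegfa, Vegfb, Vegfc and Pgf, the receptor genes Flt1, Kdr and Flt4, and the neuropilin genes Nrp1 and Nrp2. Each was read from the single probe set that names it alone. From bone marrow of male C57BL/6J mice, 5000 endothelial cells per sample were sorted by flow cytometry, and their total RNA was amplified and hybridised to microarrays. There were 3 arrays of mice made diabetic, as a model of type 2 diabetes, by feeding on a high fat diet, and 3 arrays of nondiabetic controls. One feeding protocol, 60 kcal% fat over 4 months, is attached to diabetic and control samples alike, which leaves the diet of the controls unsettled. No genetic change is named for either group. Whether each array stands for a different mouse or pool is not labelled, and every p-value below rests on a spread between samples that may be technical.

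VEGF ligands are secreted proteins that make endothelial cells survive, divide, migrate and become permeable. VEGF-A binds the receptors VEGFR1 (Flt1) and VEGFR2 (Kdr), VEGF-B and placental growth factor (Pgf) bind VEGFR1, and VEGF-C binds VEGFR3 (Flt4) and, once processed, VEGFR2. VEGFR2 carries most of the signal, VEGFR1 binds VEGF-A tightly with weak signaling and also exists as a soluble trap, and neuropilins are co-receptors that also bind class 3 semaphorins. In bone marrow, VEGFR2 and VEGFR3 are known from sinusoids, the wide venous vessels through which blood cells leave, and VEGFR2 is needed for sinusoids to regrow after injury.

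The sorted cells carried signal of endothelial genes, and some genes of blood cells were bright too. Values are log2 expression values, on which a step of 1 is a 2-fold change. The array medians over all probe sets lay between 5.21 and 5.28, and a gene with a mean below 5.07 was taken as dim and not tested. The mean of 19 tested endothelial genes lay between 8.99 and 9.67 on the diabetic arrays and between 9.04 and 9.51 on the nondiabetic arrays, and none of the 19 was dim. Among them was Cdh5, which encodes VE-cadherin, the adhesion protein of endothelial junctions, at 10.88 in diabetic and 10.98 in nondiabetic cells. Diabetic replicate 1 had the highest endothelial mean of all arrays, 9.67, where the other diabetic arrays had 9.02 and 8.99. The mean of 14 sinusoidal genes, members left out, was higher on every diabetic array (8.12 to 8.73) than on any nondiabetic array (7.79 to 7.93; exact permutation p = 0.1, two-sided, the smallest that 3 arrays against 3 can give). Of these 14 sinusoidal genes, 10 were higher and 4 lower in diabetic cells, with a median difference of 0.32. The mean of 15 arteriolar genes was 7.66 to 8.29 in diabetic and 8.06 to 8.52 in nondiabetic cells (exact permutation p = 0.2). Monocyte and neutrophil markers were also higher on every diabetic array, 7.13 to 7.34 against 6.70 to 6.98 for 11 monocyte and macrophage genes and 7.44 to 7.59 against 6.94 to 7.24 for 8 neutrophil genes (exact p = 0.1 each). The means of the endothelial, lymphatic, megakaryocyte, B lymphoid, erythroid, and stromal and mural lists differed by -0.05, -0.01, 0.22, 0.26, -0.08 and 0.01 (exact p between 0.2 and 1). Of the lymphatic markers, Prox1, Pdpn and Reln were dim. The brightest gene of the megakaryocyte list, Ppbp, averaged 11.39 in diabetic and 11.32 in nondiabetic cells, above Cdh5. That of the neutrophil list, Mpo, averaged 10.71 and 10.45, and that of the erythroid list, Car1, 9.58 and 9.67. For monocytes it was Ctss at 9.03 and 8.65, and for B lymphoid cells Ebf1 at 8.14 and 8.37. The part of RNA from such cells in the member values was not tested. In a bulk sort, fewer cells of a type and less RNA per cell cannot be told apart.

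No VEGF family gene passed the test for a difference between diabetic and nondiabetic cells. Of the 9 genes 8 were bright enough to be tested, and 0 of these 8 were called by limma at an adjusted p under 0.05, against 0.00751% of all tested genes. None of the 8 had an unadjusted p under 0.05 either, against 4.25% of all tested genes, and for none did the diabetic and nondiabetic arrays separate, against 7.95%. The 5 genes Vegfa, Vegfb, Kdr, Flt4 and Nrp2 had the higher mean in diabetic cells, and Vegfc, Flt1 and Nrp1 had the lower. The median difference of the 8, diabetic minus nondiabetic, was 0.08, and that of all 13308 tested genes was 0.02. The adjusted p was 0.997 for each of the 8 genes.

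**Figure D1:**
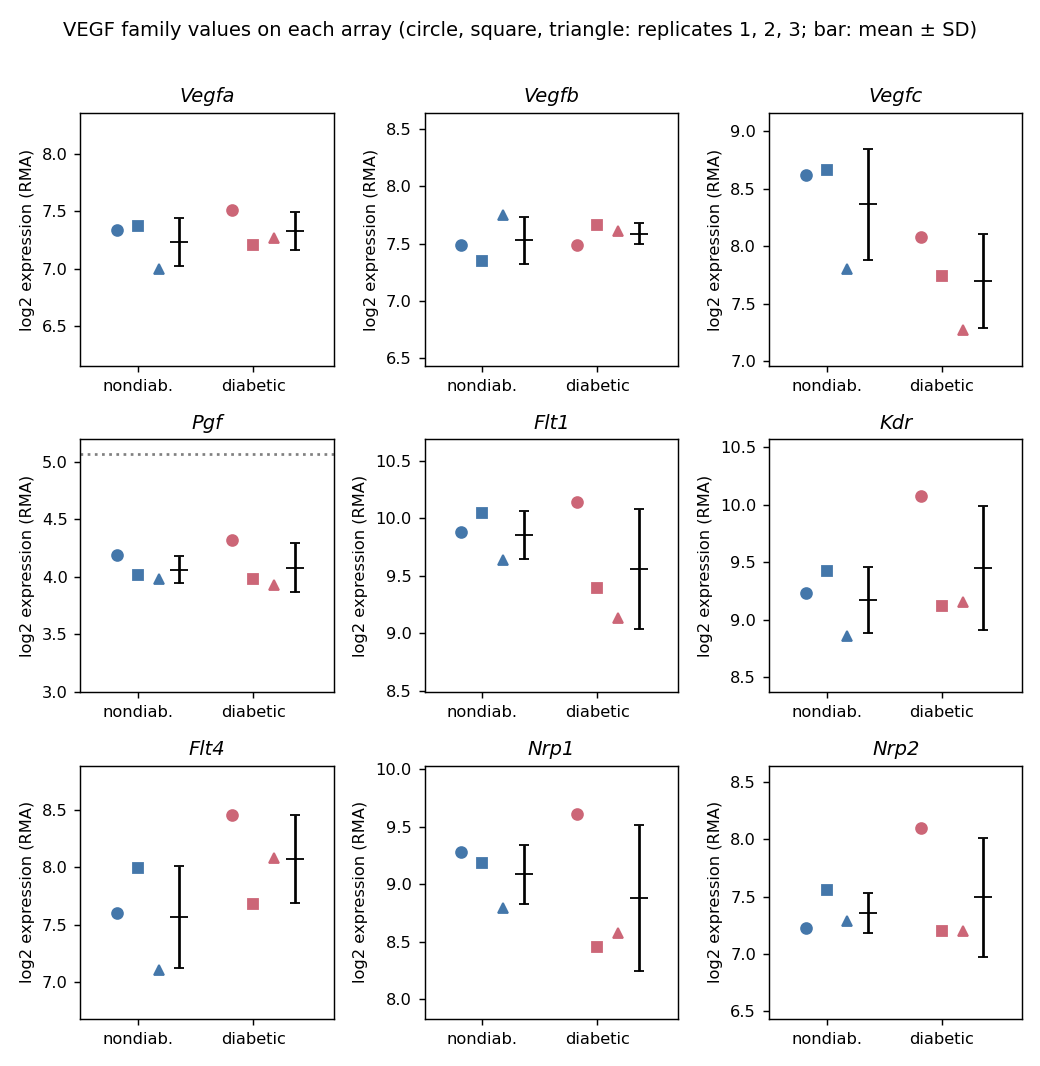
Log2 expression (RMA) of the 9 VEGF family genes on each array, with nondiabetic arrays in blue and diabetic arrays in red; circles, squares and triangles are replicates 1, 2 and 3, and the bar is the group mean with its SD (n = 3). Each panel spans the same log2 range, the dotted line at 5.07 is the limit for dim genes, and diabetic replicate 1 is the highest of all 6 arrays for 7 of the 9 genes.

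Among the ligands the largest difference was that of Vegfc, which encodes VEGF-C, the ligand of VEGFR3 and a growth factor of lymphatic vessels. Vegfc stood at 8.08, 7.74 and 7.27 on diabetic arrays 1, 2 and 3, and at 8.62, 8.66 and 7.80 on nondiabetic arrays 1, 2 and 3. Nondiabetic replicates 1 and 2 lay above every diabetic array, and nondiabetic replicate 3 lay within the diabetic range. The diabetic mean of 7.70 ± 0.41 and the nondiabetic mean of 8.36 ± 0.49 (SD, n = 3 each) differed by -0.67 (SE 0.29), that is, 1.59-fold lower in diabetic cells. The 95% interval of -1.34 to 0.0041 reached 0, and limma gave an unadjusted p = 0.0511 and an adjusted p = 0.997. Of all tested genes, 0.601% had a difference this low or lower. The difference was -0.95 without nondiabetic replicate 3 (limma unadjusted p = 0.00735) and -0.45 without diabetic replicate 3 (limma unadjusted p = 0.17). In 6 of 16 alternative analyses the unadjusted p of Vegfc was under 0.05, and in none of the 16 did it pass the adjusted test. In those 6 analyses between 545 and 1132 of the 13308 tested genes had such a p, against 566 in the main fit. Vegfc was lowest on replicate 3 of each group. These were also the arrays with the highest means of the 11 tested megakaryocyte and platelet genes, 8.90 and 8.57, where the other arrays had 7.56 to 7.89, and the part of such RNA in the Vegfc values was not tested.

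Vegfa, the main growth factor of blood vessels, stood at 7.51, 7.20 and 7.27 on the diabetic arrays and at 7.34, 7.37 and 6.99 on the nondiabetic arrays. The groups overlapped, and the difference of 0.09 (SE 0.17) had a 95% interval of -0.31 to 0.49. Vegfb, a ligand of VEGFR1 known for its part in fatty acid uptake by endothelium, stood at 7.49, 7.66 and 7.61 against 7.49, 7.35 and 7.74. Its difference of 0.06 (SE 0.16) had a 95% interval of -0.31 to 0.43. For both genes the interval was narrower than for any receptor. Pgf, the placental growth factor, was dim on all 6 arrays, at 4.32, 3.98 and 3.93 against 4.19, 4.02 and 3.98. Probe sets this dim may show background alone, so Pgf was not tested. These values come from 1 probe set per gene and do not separate splice forms, such as those of Vegfa or the soluble form of Flt1.

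The differences of the receptors went both ways. Flt4, which encodes VEGFR3, stood at 8.45, 7.68 and 8.08 on diabetic arrays 1, 2 and 3, and at 7.60, 7.99 and 7.11 on the nondiabetic arrays. Diabetic replicates 1 and 3 lay above every nondiabetic array, and diabetic replicate 2 lay within the nondiabetic range. The diabetic mean of 8.07 ± 0.38 and the nondiabetic mean of 7.57 ± 0.44 (SD, n = 3 each) differed by 0.51 (SE 0.27), that is, 1.42-fold, with a 95% interval of -0.13 to 1.14 and a limma unadjusted p = 0.102. The sinusoidal gene mean was higher on the same diabetic arrays, at 8.73, 8.12 and 8.23 against 7.93, 7.89 and 7.79, and its part in the Flt4 values was not tested. The Flt4 difference was 0.28 without nondiabetic replicate 3 and 0.32 without diabetic replicate 1. It was 0.24 with array weights, which limma estimated from the spread of these same values. Diabetic arrays 1, 2 and 3 had weights of 0.49, 2.96 and 0.67. Leaving out diabetic replicate 2 gave 0.70 and leaving out nondiabetic replicate 2 gave 0.72, with limma unadjusted p = 0.0447 and 0.0346. In these fits 506 and 532 of the 13308 tested genes had an unadjusted p under 0.05.

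Kdr, which encodes VEGFR2, stood at 10.08, 9.12 and 9.15 on the diabetic arrays and at 9.24, 9.43 and 8.86 on the nondiabetic arrays. Only diabetic replicate 1 lay outside the nondiabetic range. The difference of 0.28 (SE 0.28) had a 95% interval of -0.38 to 0.93, and without diabetic replicate 1 it was -0.04. Flt1, which encodes VEGFR1, stood at 10.14, 9.40 and 9.13 against 9.88, 10.05 and 9.64. Here diabetic replicates 2 and 3 lay below every nondiabetic array and diabetic replicate 1 lay above them. The difference of -0.30 (SE 0.27) had a 95% interval of -0.91 to 0.31. Without diabetic replicate 1 it was -0.59 with a limma unadjusted p = 0.0181, and without diabetic replicate 3 it was -0.09. In the fit without diabetic replicate 1, 713 of the 13308 tested genes had an unadjusted p under 0.05. Of these, 422 were lower and 291 higher in diabetic cells, where the main fit had 142 lower and 424 higher.

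The neuropilins divided the diabetic arrays as Flt1 did. Nrp1, a co-receptor of VEGFR2 found on arteries during development, stood at 9.61, 8.46 and 8.58 on the diabetic arrays and at 9.28, 9.18 and 8.80 on the nondiabetic arrays. Diabetic replicates 2 and 3 lay below every nondiabetic array and diabetic replicate 1 above them. The difference of -0.20 (SE 0.31) had a 95% interval of -0.92 to 0.51, and without diabetic replicate 1 it was -0.57 with a limma unadjusted p = 0.0244. In that same fit, 422 tested genes were lower and 291 higher at an unadjusted p under 0.05. Nrp2, the co-receptor of VEGFR3 on veins and lymphatic vessels, stood at 8.09, 7.20 and 7.20 against 7.23, 7.55 and 7.29, again with diabetic replicates 2 and 3 below and diabetic replicate 1 above every nondiabetic array. The difference of 0.14 (SE 0.26) had a 95% interval of -0.46 to 0.74, and it was -0.16 without diabetic replicate 1. All 5 receptor and neuropilin genes had their highest value on diabetic replicate 1, the array with the highest endothelial mean, and 4 of these 5 had a larger SD in the diabetic than in the nondiabetic group. Flt4 was the exception in SD.

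With the endothelial mean of each array as a covariate in the fit, the differences were 0.57 for Flt4, 0.35 for Kdr and -0.61 for Vegfc, with limma unadjusted p = 0.0207, 0.0402 and 0.0227. Of all tested genes, 5.27% had an unadjusted p under 0.05 in that fit. None of the 8 tested genes passed the adjusted test in that fit either, and the smallest adjusted p was 0.855. The same fit gave -0.24 for Flt1, -0.13 for Nrp1, 0.20 for Nrp2, 0.12 for Vegfa and 0.04 for Vegfb, with limma unadjusted p = 0.155, 0.472, 0.261, 0.427 and 0.795.

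**Figure D2:**
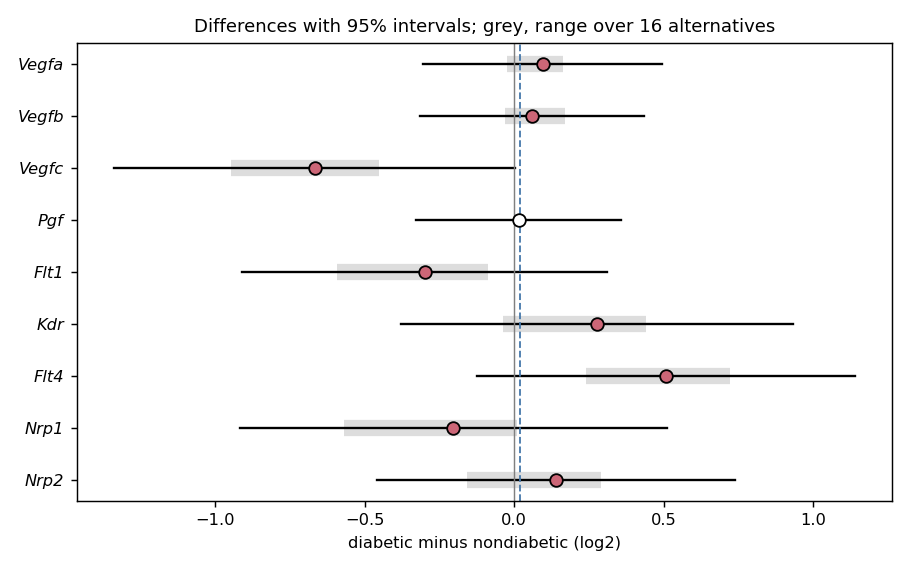
Difference in log2 expression, diabetic minus nondiabetic, for each VEGF family gene (red points; open point for Pgf, which was too dim to test), with its 95% interval from limma (black lines) and the range over 16 alternative analyses (grey bars, tested genes). The dashed line is the median of all tested genes, 0.02; every interval includes 0, with the upper end for Vegfc at 0.0041.

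Differences between members of the family on the same array separated the groups more often than the genes did singly. Such a difference leaves out any shift that both genes share on an array. Its own size has no meaning, since probe sets respond differently, and only its change between arrays was compared. Of the 28 pairs of tested members, 8 pairs, or 28.6%, had all diabetic arrays on one side of all nondiabetic arrays, where 9.16% of all pairs of tested genes did. The 28 pairs share 8 genes and were examined after the values were seen, so they are given as a description with no test. Pairs of other endothelial genes were not compared, so the share over all pairs may not be a like background. Each of the 8 pairs held Flt1, Nrp1 or Vegfc as the gene that stood lower in diabetic cells relative to its partner. These are the 3 tested members with the lower mean in diabetic cells, so this follows in part from their single differences.

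Flt4 relative to its ligand Vegfc had the widest gap between the groups. Flt4 minus Vegfc was 0.37, -0.05 and 0.81 on diabetic arrays 1, 2 and 3 and -1.02, -0.67 and -0.70 on the nondiabetic arrays. The means were 0.38 ± 0.43 and -0.80 ± 0.19 (SD, n = 3 each), a change of 1.17, and with each array left out in turn it lay between 0.96 and 1.39. The pairs given here were picked for groups that do not overlap, so leaving out an array could not turn the sign of any. Kdr relative to Flt1, the signaling receptor relative to the receptor that can trap VEGF-A, also separated the groups. Kdr minus Flt1 was -0.06, -0.28 and 0.02 on the diabetic arrays and -0.65, -0.62 and -0.78 on the nondiabetic arrays, a change of 0.58 that lay between 0.51 and 0.66 with each array left out. Diabetic replicate 1, which was the highest array for both genes, lay between the other diabetic arrays here. Kdr minus Nrp1 was 0.46, 0.67 and 0.58 against -0.04, 0.24 and 0.07, and Flt4 minus Flt1 was -1.69, -1.71 and -1.05 against -2.28, -2.06 and -2.54. The changes of these pairs were 0.48 and 0.81. The other pairs were Kdr and Vegfa relative to Vegfc, with changes of 0.94 and 0.76, Nrp2 relative to Flt1 with 0.44, and Flt4 relative to Nrp1 with 0.71. The sinusoidal mean was higher and the arteriolar mean lower in the diabetic group on these arrays, by 0.49 and -0.36, and their part in these changes was not tested.

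**Figure D3:**
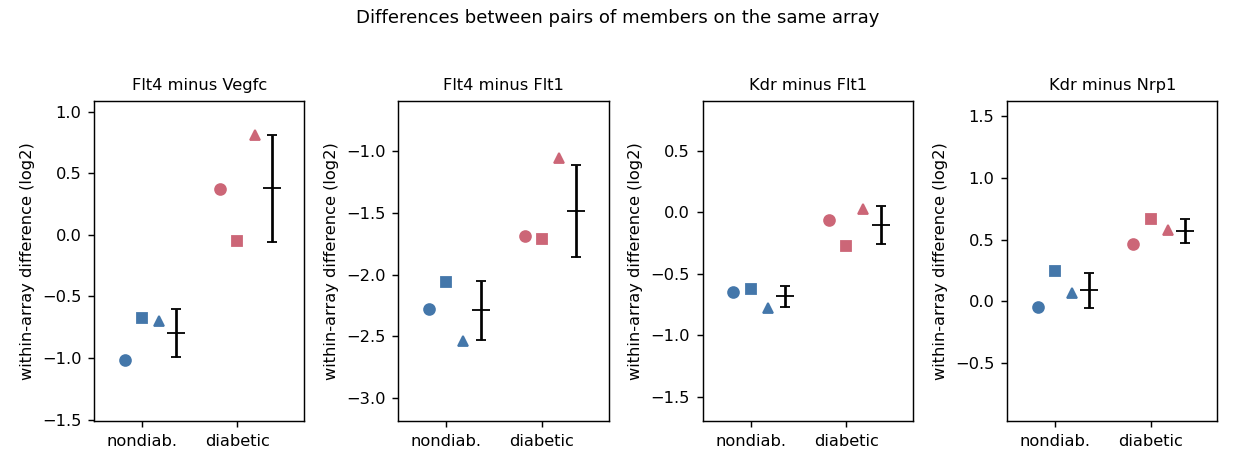
Within-array difference in log2 expression for 4 pairs of VEGF family genes, with nondiabetic arrays in blue and diabetic arrays in red; circles, squares and triangles are replicates 1, 2 and 3, and the bar is the group mean with its SD (n = 3). In each panel all 3 diabetic arrays lie above all 3 nondiabetic arrays; these pairs were picked after the values were seen.

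The stretches of 250 bases before the start of Vegfc, Flt4, Kdr and Flt1, the genes that make up 4 of these 8 pairs, are shown for reference, from RefSeq on assembly GRCm38.p6. Capitals mark the letters GGAA, the core of sites of ETS factors, a major class of endothelial transcription factors, and ACGTG or GCGTG, the core of hypoxia-inducible factor sites, on either strand. They lie at chr8:54077282-54077531 on the plus strand (Vegfc), chr11:49609429-49609678 on the plus strand (Flt4), chr5:75978456-75978705 on the minus strand (Kdr) and chr5:147726012-147726261 on the minus strand (Flt1).
Vegfc: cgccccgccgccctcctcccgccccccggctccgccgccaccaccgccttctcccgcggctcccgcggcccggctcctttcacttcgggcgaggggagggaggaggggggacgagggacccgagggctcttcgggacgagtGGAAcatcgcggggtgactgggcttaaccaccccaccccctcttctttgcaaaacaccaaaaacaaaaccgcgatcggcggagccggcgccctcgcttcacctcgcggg
Flt4: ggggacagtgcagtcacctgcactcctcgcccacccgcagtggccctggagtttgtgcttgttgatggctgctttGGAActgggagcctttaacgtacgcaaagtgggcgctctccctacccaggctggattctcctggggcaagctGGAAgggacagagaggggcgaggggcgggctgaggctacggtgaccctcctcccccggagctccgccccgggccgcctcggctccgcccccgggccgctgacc
Kdr: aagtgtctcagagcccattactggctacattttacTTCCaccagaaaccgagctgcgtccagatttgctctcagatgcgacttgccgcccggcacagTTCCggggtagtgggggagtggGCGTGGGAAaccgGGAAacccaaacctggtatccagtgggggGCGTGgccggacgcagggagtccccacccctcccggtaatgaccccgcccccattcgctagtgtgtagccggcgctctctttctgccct
Flt1: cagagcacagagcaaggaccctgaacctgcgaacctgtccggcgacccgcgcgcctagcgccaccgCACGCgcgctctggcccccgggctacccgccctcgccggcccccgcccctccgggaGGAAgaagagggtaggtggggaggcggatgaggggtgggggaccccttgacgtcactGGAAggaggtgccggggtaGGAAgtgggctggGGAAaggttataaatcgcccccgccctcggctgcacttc
GGAA occurred 4 times each in the Kdr and Flt1 stretches, 2 times in that of Flt4 and 1 time in that of Vegfc, and 93.4% of all 32851 such stretches in the table hold it. ACGTG or GCGTG occurred 2 times for Kdr, 1 time for Flt1 and 0 times for Vegfc and Flt4, and 38.6% of all stretches hold either. All 9 members matched the table, with 11 start sites in all, of which 9 hold GGAA and 7 hold ACGTG or GCGTG. A match of letters is a description and shows no binding.

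The genes around the family were described by 6 lists: genes that handle the ligands, partners of the receptors, semaphorins and plexins, the signal relay inside the cell, genes known to respond to VEGF-A, and factors that control the family's expression. Limma called 0 of the 155 different tested genes in these 6 lists at an adjusted p under 0.05, against 0.00751% of all tested genes. An unadjusted p under 0.05 was reached by 12 of them, against 4.25% of all tested genes. The list of 39 tested VEGF-A response genes had 25 genes higher and 14 lower in diabetic cells and a median difference of 0.14, beside 0.02 for all tested genes. At an unadjusted p under 0.05, 6 of its genes were higher and 1 was lower. Of all tested genes 4.25% reached that p, 424 of them higher and 142 lower, so the whole table also leaned to higher. Those with the smallest p-values were Sele, which encodes E-selectin, the endothelial adhesion molecule that captures rolling leukocytes, and Igfbp3, which binds insulin-like growth factors. Sele differed by 1.41 (SE 0.34, n = 3 arrays per group). Igfbp3 differed by -0.88 (SE 0.28), and it also belongs to the arteriolar list. The list mixes genes of several pathways, since inflammatory signals also induce Sele. The per-array mean of the list was 7.78, 7.59 and 7.37 on diabetic arrays 1, 2 and 3 and 7.38, 7.45 and 7.43 on the nondiabetic arrays. Diabetic replicate 3 thus lay below every nondiabetic array. The group means differed by 0.16 with every array used, by 0.06 without diabetic replicate 1 and by 0.26 without diabetic replicate 3. The sinusoidal list shares Vcam1, a leukocyte adhesion molecule, with the higher genes of this list; Vcam1 differed by 0.93 and is named here after its value was seen. The means of sinusoidal genes and of monocyte and neutrophil markers were higher by 0.49, 0.40 and 0.46 on the same diabetic arrays, and their part in this list was not tested.

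The factors that control the family's expression had 16 genes higher and 15 lower among 31 tested, with a median of 0.0025. Nr2f2, a transcription factor of venous identity, averaged 7.04 ± 0.54 in diabetic and 5.83 ± 0.42 in nondiabetic cells (SD, n = 3 each) and so differed by 1.20 (SE 0.31). Sox17, a transcription factor of arterial identity, averaged 8.68 ± 0.13 and 9.12 ± 0.28 and differed by -0.45 (SE 0.18). For both, the groups did not overlap, as for 7.95% of all tested genes, and the limma adjusted p was 0.997. Both were named for having the smallest p of the list, which favours groups that do not overlap. Sox17 also belongs to the arteriolar list and so is part of its mean. Among the receptor partners, 14 of 27 tested genes were higher and the median was 0.0048. Ptpn11, a phosphatase that relays growth factor signals, differed by 0.51 (SE 0.21), and Efnb2, the arterial ephrin that helps to internalise VEGF receptors, by -0.55 (SE 0.25). Efnb2 is in the arteriolar list too.

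The signal relay had 22 of 39 tested genes higher and a median of 0.04. Mapkapk2, a kinase that carries the p38 signal of VEGFR2 to the cytoskeleton, differed by 0.48 (SE 0.20), and Vav2, an activator of Rac, by 0.32 (SE 0.19). Of the genes that handle the ligands, 5 of 13 tested were higher and the median was -0.02. Hpse, a heparanase that cuts the heparan sulfate on which VEGF is held, differed by -0.64 (SE 0.25). Its groups did not overlap, and it was named for having the smallest p of its list. Plat, the tissue plasminogen activator, differed by -0.26 (SE 0.19). Vegfd, the other ligand of VEGFR3, and Ccbe1 and Adamts3, which help to process VEGF-C, were dim. Of 13 semaphorin and plexin genes 7 were dim, 3 of the 6 tested were higher and the median was 0.01. Sema3g, a semaphorin of arteries that is also in the arteriolar list, differed by -0.30 (SE 0.25). Plxna4, a semaphorin receptor, differed by 0.21 (SE 0.17).

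**Figure D4:**
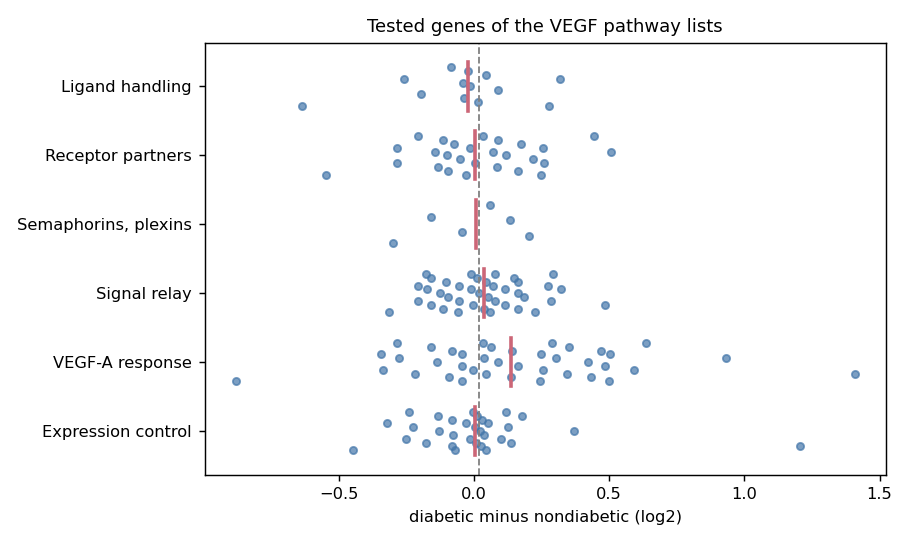
Difference in log2 expression, diabetic minus nondiabetic, of every tested gene (points) of 6 lists around the VEGF family, with the list's median as a red bar and the median of all tested genes, 0.02, as a dashed line; the height of a point within a list has no meaning. The VEGF-A response list has the highest median, 0.14, and its rightmost gene is Sele at 1.41.

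For each receptor, the 2 genes with the most similar pattern over the 6 arrays were found by the root mean square distance between values centred on each gene's own mean. For Flt1 these were Ece1, which encodes endothelin-converting enzyme, at a distance of 0.05, and Lama4, a laminin chain of vessel basement membranes, at 0.07. Ece1 stood at 9.73, 9.08 and 8.74 on the diabetic arrays and at 9.45, 9.73 and 9.22 on the nondiabetic arrays. Diabetic replicate 3 was lowest, as for Flt1, which the choice by likeness favours. For Kdr they were Naxe at 0.06 and Pde2a, a phosphodiesterase found in endothelium, at 0.08, and their differences were 0.26 and 0.24. For Flt4 they were the splicing factor gene Prpf4 at 0.10 and the potassium channel gene Kcnq1 at 0.11, with differences of 0.60 and 0.42. Over 6 arrays and 13308 genes, close patterns of this kind are a description only.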

How the data were processed

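The deposited values are on the log2 scale and were made by the authors with RMA, which corrects background, gives all arrays a common distribution and summarises probes per probe set, per the submitters' processing notes; the program and its version are not given in the sources used. RNA was amplified with the Ovation Pico WTA System V2, per the labels' protocols. The table held 41345 probe sets; by the platform annotation, which can be old, 23521 named 1 gene, 1814 several and 16010 none. Each of 22180 genes took its brightest probe set over the 6 arrays, and genes under the 40th percentile (5.07) were left out, leaving 13308 tested genes. Diabetic and nondiabetic arrays were tested against each other by limma 3.58.1 (lmFit and eBayes without covariates, R 4.3.3), with Benjamini-Hochberg adjustment over all tested genes at 0.05. Per-array means of marker lists were compared with an exact permutation test (scipy 1.17.1). The members, lists and tests were chosen with earlier results of these data known. Named besides the members were the 2 tested genes of each pathway list with the smallest p and the 2 genes nearest to each receptor. Marker genes from the endothelial list and the brightest tested gene of each blood cell list were named too. Dim genes are named as dim. Intervals are 95% intervals of that fit and are not adjusted for the number of genes. The alternatives changed the filter, the choice of probe sets, the normalization, the variance model, array weights, a replicate block, an endothelial covariate and the arrays used. Data were simulated with independent noise of this spread and 200 genes changed at random. Of changes of 1 (log2), 65.6% were recovered among 13308 genes, and of changes of 2, 98.9%. The median SE over all tested genes was 0.19, and the SEs of the receptors, neuropilins and Vegfc lay between 0.26 and 0.31. The largest member difference, -0.67, was smaller in size than the changes simulated, so these shares do not apply to the members. The small number of arrays limits the precision.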

Additional observations from a re-analysis of the deposited data

How the results depend on the processing

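None of the 8 tested members was called under any of the 16 alternatives to the limma analysis. Of 129 member differences, Pgf included where no filter was applied, 122 kept their sign. The changes of filter, probe sets and variance model and the replicate block left every member difference unchanged, so no sign could turn there. The sign changed for Vegfa with array weights (-0.0015) and without nondiabetic replicate 3 (-0.025), for Vegfb without nondiabetic replicate 2 (-0.030), for Kdr without diabetic replicate 1 (-0.037), for Nrp1 without diabetic replicate 2 (0.0095), and for Nrp2 with array weights (-0.058) and without diabetic replicate 1 (-0.16). Leaving out each array in turn, the differences lay between -0.95 and -0.45 for Vegfc, 0.28 and 0.72 for Flt4, -0.59 and -0.09 for Flt1, -0.037 and 0.44 for Kdr, -0.57 and 0.0095 for Nrp1, -0.16 and 0.29 for Nrp2, -0.025 and 0.16 for Vegfa and -0.030 and 0.17 for Vegfb. The unadjusted p was under 0.05 for Vegfc with quantile normalization (0.0319), array weights (0.0199), the replicate block (0.00877) and the endothelial covariate (0.0227), and without diabetic replicate 1 (0.0289) or nondiabetic replicate 3 (0.00735), all from limma. Of the 13308 tested genes, 615, 1132, 545, 701, 713 and 688 had such a p in these fits, in that order. Over all genes limma called 1 gene, not a member, and 0 genes with the filter at the 60th percentile or without nondiabetic replicate 3; with each array left out the count lay between 0 and 1. The replicate block also called 1 gene and 0 members. Over all tested genes, same-numbered arrays did not deviate together (correlations of -0.04, -0.06 and 0.02). These correlations do not settle whether the numbers pair the arrays, and Vegfc was lowest on replicate 3 of each group. Quantile normalization left the Flt4 minus Vegfc change at 1.18 and Kdr minus Flt1 at 0.59. Chosen after seeing the data, the marker list means were recomputed with each array left out: their differences lay between 0.30 and 0.61 for sinusoidal, 0.34 and 0.48 for monocyte, 0.39 and 0.54 for neutrophil, 0.17 and 0.36 for B lymphoid, -0.53 and -0.22 for arteriolar, -0.27 and 0.067 for endothelial, -0.14 and 0.071 for lymphatic, -0.12 and 0.51 for megakaryocyte, -0.18 and 0.0027 for erythroid and -0.063 and 0.099 for stromal and mural genes. The cause of these changes was not tested. The number of arrays, 3 a group, limits the precision, and the median standard error over all tested genes was 0.19.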
